A study of Homo sapiens with 4 samples.

Results

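Long intergenic noncoding RNA genes with a LINC symbol (LINC followed by digits) were examined in OVCAR3, a long-used line of human ovarian carcinoma cells of the serous type. A gene was a member if the mean of its normalized read counts over 4 libraries was at least 50. Of 62696 gene rows, 2256 carried such a symbol, and 190 of them were members. A further 830 LINC rows had 0 reads in every library. The members were chosen on the same values that are described here, so their levels and ratios are given as a description, and the calls of a fit across all genes are counted for them without being read as evidence. Members fell into 3 classes by size of ratio. A member was counted as mainly in wild type, or mainly in knockdown, if the wild-type value and the knockdown mean differed at least 4-fold and every knockdown library lay on that side. By this definition 38 members were mainly in wild type, 11 mainly in knockdown and 141 in both. Since 3 of the 4 libraries are knockdown, a gene expressed mainly in wild type needed a higher level to become a member.

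The study profiled OVCAR3 cells with a short hairpin RNA (shRNA) knockdown of the pseudogene transcript ANAPC1P2 in 3 libraries, called KD 1, KD 2 and KD 3, beside wild-type OVCAR3 cells in 1 library (WT). Both were grown in RPMI medium with fetal bovine serum. Total RNA was sequenced after removal of ribosomal RNA, with a dUTP step that keeps the strand. No library is labelled as carrying a non-targeting hairpin, and the labels do not say whether the 3 knockdown sets were separate cultures, hairpins or clones, so p-values reflect only how these libraries vary, and that variation may be technical. Carrying a hairpin, losing ANAPC1P2 and being the single wild-type preparation cannot be told apart.

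LINC genes are transcribed by RNA polymerase II, mostly outside protein-coding genes, and their transcripts are often spliced and polyadenylated but not translated. Many are held at low levels because the nuclear exosome degrades them soon after synthesis, and many are expressed in few cell types. A few act on neighbouring genes, bind proteins in the nucleus or host small or circular RNAs, while for most no function is known.

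The targeted transcript ANAPC1P2 had 0, 11 and 8 reads in KD 1, KD 2 and KD 3 and 14 reads in WT, which is 0, 8.55, 8.89 and 15.5 normalized counts. With 0 reads, a level of up to 2.84 normalized counts (3 reads) is allowed in KD 1. All knockdown libraries were below WT, but these counts are too low for the label to be checked with precision. A second identifier with the same symbol had 0 reads in every library.

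Reads in genes numbered 42871815 to 56216398 in the knockdown libraries and 27868718 in WT. The WT library stood apart from the others. It had reads in 36832 genes against 31014 to 32823 in knockdown, although it was the least deeply sequenced. In pairs of knockdown libraries, chi-square per degree of freedom over genes was 9.95 to 13.7, and in pairs of WT with a knockdown library it was 392 to 432. All 14 epithelial and serous ovarian markers had reads in every group, and 8 were higher and 4 lower in knockdown, beside 31.4% higher and 36.3% lower over all genes tested. They summed to 130354 to 144243 normalized counts in knockdown and 575716 in WT. Most of that gap came from MUC16, the gene of the CA125 antigen, with 26757, 35345 and 24678 in knockdown and 458890 in WT, and PAX8 had 18322, 19970 and 21361 against 62685. Erythroid markers, 9 genes, summed to 17.8 to 28.0 normalized counts in knockdown and 15016 in WT. HBB, HBA1, HBA2, HBD, SLC4A1 and AHSP were at 0 in all knockdown libraries. Of these, HBB had 12412 in WT, but HBD only 3.33 and AHSP 4.44. Leukocyte markers, 14 genes, summed to 408 to 445 in knockdown and 2008 in WT. LYZ, CD3D, MS4A1, FCGR3B and CD68 were at 0 in knockdown, with 2.22 (CD3D) to 217 (FCGR3B) in WT. Neuronal markers, 15 genes, summed to 1603 to 1804 in knockdown and 7847 in WT, most of it from GRIN2B (4190) and NEUROD6 (2374). NEUROD6, NEUROD1, SLC32A1 and NEFL were at 0 in knockdown and GAD2 at 0 in WT. In WT, NEUROD1 and SLC32A1 had 2.22 and NEFL 12.2. A WT value of 2.22 is under 3 reads (3.33), so a 0 in knockdown tells little there. RBFOX3 was not lower in knockdown, with 125, 133 and 142 against 108. Of the 6 other marker lists (glia, fibroblast, endothelium, melanocyte, germ cell and hepatocyte), 5 had a higher sum in WT and glia a higher sum in knockdown, 5464 to 6251 against 2958. The part of these differences in the LINC values was not tested. Since WT is a single library, no ratio or class of a LINC gene could be given without it. In bulk RNA of this kind, fewer cells of a type and less RNA per cell cannot be told apart.

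The start regions of 3 members of each class are shown first, the highest of those with an entry in the RefSeq promoter table, because a promoter is the place where members that move together could share letters. Each sequence runs from 250 bases before to 50 bases after the RefSeq start (GRCh38.p14), in the direction of the gene. Capitals mark matches to 5 motifs. The TATA box was searched as TATAAA on the gene's strand. On either strand, the CCAAT box was searched as its name spells it, the GC box as GGGCGG, the E-box as CACGTG and the AP-1 motif as TGANTCA. When found on the other strand, the CCAAT box appears in capitals as its reverse complement, and adjoining matches can overlap. For members mainly in wild type, the regions are LINC00621 at chr13:22916320-22916619 (minus strand), LINC01355 at chr1:23285469-23285768 (minus strand) and LINC01176 at chr7:30390635-30390934 (plus strand).
LINC00621: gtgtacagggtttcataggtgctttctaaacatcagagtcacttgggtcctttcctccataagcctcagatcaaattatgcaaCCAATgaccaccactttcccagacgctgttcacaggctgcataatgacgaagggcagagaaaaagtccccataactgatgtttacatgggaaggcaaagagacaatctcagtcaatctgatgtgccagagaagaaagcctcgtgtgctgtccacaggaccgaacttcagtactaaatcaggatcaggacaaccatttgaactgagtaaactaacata
LINC01355: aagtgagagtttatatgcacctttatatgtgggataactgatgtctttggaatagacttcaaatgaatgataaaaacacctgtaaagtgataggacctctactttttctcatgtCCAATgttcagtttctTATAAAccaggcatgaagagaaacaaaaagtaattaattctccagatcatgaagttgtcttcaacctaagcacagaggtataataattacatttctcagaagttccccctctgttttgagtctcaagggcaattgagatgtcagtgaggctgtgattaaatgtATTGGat
LINC01176: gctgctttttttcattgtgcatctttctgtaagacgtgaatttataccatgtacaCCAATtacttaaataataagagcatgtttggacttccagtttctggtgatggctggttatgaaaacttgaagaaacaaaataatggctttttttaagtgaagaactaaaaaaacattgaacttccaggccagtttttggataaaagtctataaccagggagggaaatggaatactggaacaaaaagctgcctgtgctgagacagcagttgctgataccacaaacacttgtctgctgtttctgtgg

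For members mainly in knockdown, the regions are LINC00626 at chr1:168786691-168786990, LINC00632 at chrX:140709509-140709808 and LINC01133 at chr1:159960974-159961273, all on the plus strand.
LINC00626: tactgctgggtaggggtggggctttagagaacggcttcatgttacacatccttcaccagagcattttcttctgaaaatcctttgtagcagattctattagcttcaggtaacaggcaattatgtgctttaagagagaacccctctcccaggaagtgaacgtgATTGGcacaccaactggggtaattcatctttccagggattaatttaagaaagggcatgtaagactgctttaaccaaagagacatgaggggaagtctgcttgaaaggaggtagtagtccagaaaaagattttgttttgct
LINC00632: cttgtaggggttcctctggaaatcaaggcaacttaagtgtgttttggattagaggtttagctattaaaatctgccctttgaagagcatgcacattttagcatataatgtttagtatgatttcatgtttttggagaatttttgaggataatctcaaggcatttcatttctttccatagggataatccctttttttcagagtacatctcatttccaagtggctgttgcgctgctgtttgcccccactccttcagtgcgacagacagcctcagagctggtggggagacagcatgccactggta
LINC01133: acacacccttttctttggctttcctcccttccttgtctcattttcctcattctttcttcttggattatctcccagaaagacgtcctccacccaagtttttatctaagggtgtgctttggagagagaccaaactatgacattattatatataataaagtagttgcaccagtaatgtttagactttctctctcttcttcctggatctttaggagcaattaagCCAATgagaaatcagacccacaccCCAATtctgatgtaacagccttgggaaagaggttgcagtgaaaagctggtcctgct

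For members in both groups, the regions are LINC00472 at chr6:71420696-71420995, LINC01278 at chrX:63561046-63561345 and LINC01234 at chr12:113773634-113773933, all on the minus strand.
LINC00472: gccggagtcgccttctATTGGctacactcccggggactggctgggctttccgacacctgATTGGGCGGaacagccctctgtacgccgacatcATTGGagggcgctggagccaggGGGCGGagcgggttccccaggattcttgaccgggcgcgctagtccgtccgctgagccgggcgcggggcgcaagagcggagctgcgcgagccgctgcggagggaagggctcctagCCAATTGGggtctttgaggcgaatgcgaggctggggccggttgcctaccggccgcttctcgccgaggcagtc
LINC01278: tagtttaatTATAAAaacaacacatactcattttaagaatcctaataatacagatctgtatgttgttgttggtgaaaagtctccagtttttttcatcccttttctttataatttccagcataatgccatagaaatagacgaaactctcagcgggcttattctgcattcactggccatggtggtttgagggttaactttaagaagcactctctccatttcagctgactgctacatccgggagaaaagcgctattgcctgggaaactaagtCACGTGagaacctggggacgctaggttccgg
LINC01234: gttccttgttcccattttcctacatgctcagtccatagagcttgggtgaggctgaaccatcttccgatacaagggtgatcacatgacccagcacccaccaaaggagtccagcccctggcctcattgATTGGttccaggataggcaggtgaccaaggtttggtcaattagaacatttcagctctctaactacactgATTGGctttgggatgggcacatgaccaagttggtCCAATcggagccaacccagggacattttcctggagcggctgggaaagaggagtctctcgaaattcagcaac

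Of these 9 regions, LINC00472 was the richest in G and C, 68.7%, with 5 CCAAT and 2 GGGCGG matches. It was the only one of the 9 with a GGGCGG match. The 3 regions of members mainly in knockdown had 41.3% to 43.0% G and C, and those of members mainly in wild type 35.3% to 44.7%. Promoter entries were found for 123 of the 190 members, 28 mainly in wild type, 7 mainly in knockdown and 88 in both. Median G and C content was 53.0%, 41.7% and 57.7% in these classes and 58.3% over all 27305 promoters of the table. The count of CG dinucleotides relative to that expected from base composition had medians of 0.490, 0.164 and 0.550, beside 0.580 over all promoters. GGGCGG stood in 7 of 28 regions of the class mainly in wild type, 14.3% of those mainly in knockdown and 44.3% of those in both, beside 44.6% of all promoters. CCAAT stood in 46.4%, 42.9% and 45.5%, beside 35.7% of all. TGANTCA stood in 10.7%, 14.3% and 14.8%, beside 7.76% of all, TATAAA in 10.7%, 0% and 5.68%, beside 7.71%, and CACGTG in 10.7%, 0% and 10.2%, beside 7.43%. These shares describe letters in a window and were not tested, and the class mainly in knockdown rests on 7 regions. The RefSeq start can lie away from the outermost annotated end of a gene, as in LINC01355.

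Across all members, LINC genes took a smaller share of reads in knockdown. Members took 0.146%, 0.148% and 0.129% of reads in KD 1, KD 2 and KD 3 and 0.294% in WT. Shares of reads amount to equal library totals, a scaling under which the median log2 difference of all genes was also negative, -0.89. In the deposited normalized counts the gap was smaller, with members summing to 66991, 64762 and 61613 in knockdown and 91134 in WT. LINC rows with at least 1 read numbered 863 to 925 in knockdown and 1128 in WT. All 3 knockdown libraries lay below WT for 121 members and above WT for 51, and the 2 groups overlapped for 18. Among all 15635 genes with a mean of at least 50, every knockdown library was below WT for 40.4% and above it for 53.2%. The median log2 ratio of knockdown mean over WT was -0.67 for the members, 0.21 for all genes at this level and 0.42 for protein-coding genes.

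In the fit across 23344 genes with a mean of at least 10 (limma on log2 of the normalized count + 1, Benjamini-Hochberg adjusted, threshold 0.05), 37 members were called higher and 97 lower in knockdown, and 56 were not called. These are 19.5% and 51.1% of members, beside 31.4% called higher and 36.3% called lower over all genes tested. At the same level, a mean of at least 50, 44.2% of genes were called higher and 31.0% lower. Because the members of both outer classes were chosen for a large ratio, nothing is read from their calls: the 38 members mainly in wild type were all called lower and the 11 mainly in knockdown all higher. Of the members in both, 26 were called higher, 59 lower and 56 not.

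By the 4-fold definition, 38 of 190 members were mainly in wild type, beside 9.88% of all genes with a mean of at least 50 and 3.95% of protein-coding genes. Mainly in knockdown were 5.79% of members, beside 5.69% of all genes. Other genes that are not protein-coding lay further toward wild type, with 35.8% mainly in wild type and a median log2 ratio of -1.47. Antisense genes (470, symbols ending in AS and a number) had a median of -1.20, divergent transcripts (165, ending in DT) -0.69 and host genes of small RNAs (57) -0.84. LINC rows with a mean between 10 and 50 (251) had a median of -1.06. The median was below 0 in each of these noncoding classes, and that of the LINC members was close to that of the divergent transcripts.

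**Figure D1:**
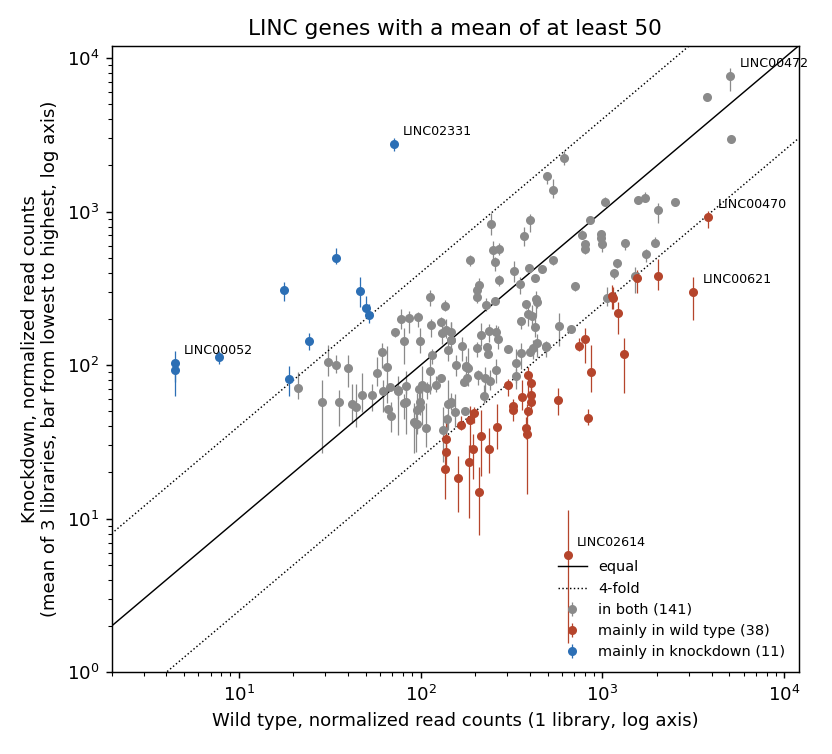
Each point is 1 of the 190 members, with normalized read counts in WT on the horizontal log axis and the mean of 3 knockdown libraries on the vertical log axis, bars running from the lowest to the highest knockdown library. The solid line marks equal levels and the dotted lines a 4-fold difference, and 38 members lie beyond it toward wild type and 11 toward knockdown.

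**Figure D2:**
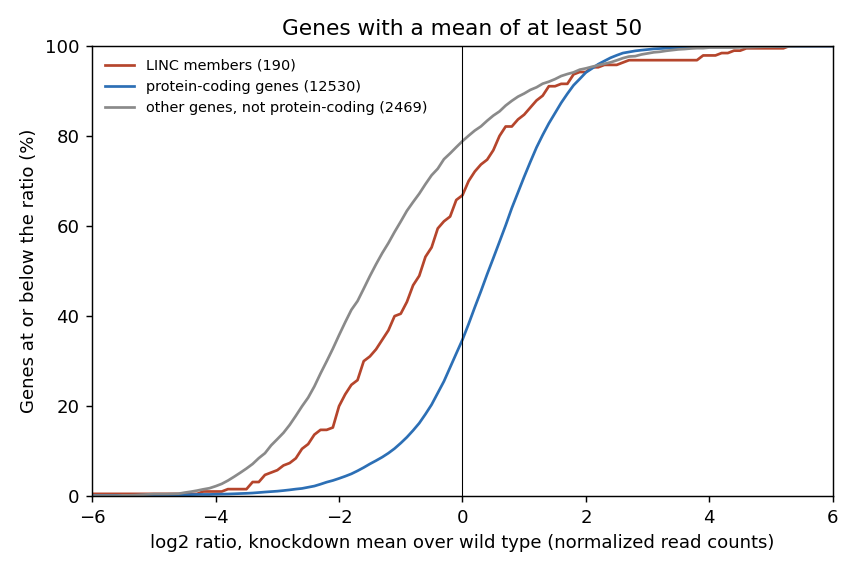
Cumulative share of genes (vertical axis, percent) at or below a given log2 ratio of knockdown mean over WT (horizontal axis), for genes with a mean of at least 50. At the medians, the LINC curve (-0.67) lies between that of noncoding genes outside the LINC set (-1.47) and that of protein-coding genes (0.42). At a log2 ratio of -4 it also lies between them, with 1.05% of members beside 2.23% and 0.44%. From -4.8 down it runs above both, through LINC02614 alone. From 2.2 to 5.2 it runs below both.

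Members mainly in knockdown were few, and most of their signal came from 1 gene. Their summed level was 5158, 4579 and 4789 normalized counts in KD 1, KD 2 and KD 3 and 332 in WT. LINC02331 had 3037, 2484 and 2747 normalized counts in KD 1, KD 2 and KD 3 and 71.1 in WT. All knockdown libraries stood far above WT, with means 38.8-fold apart. LINC02331 lies at chr14:53768942-53850882 on the minus strand (GRCh38), and BMP4, which encodes a secreted bone morphogenetic protein ligand, is the nearest protein-coding gene. Per kilobase of annotated exon, LINC02331 reached 4578 normalized counts in knockdown and 118 in WT, the highest knockdown level per length among the members named here.

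LINC01320 had 455, 577 and 456 normalized counts in the knockdown libraries and 34.4 in WT, a 14.4-fold ratio. It is a gene spanning chr2:33706886-34738231, more than any other member. LINC00626 had 351, 312 and 260 in knockdown and 17.8 in WT, 17.3-fold. LINC00632 had 373, 240 and 292 in knockdown and 46.6 in WT, 6.47-fold. LINC00632 on the X chromosome is known as the host transcript of the circular RNA CDR1as, and its exons overlap an annotated gene on the other strand. Reads of linear and circular products are not separated in these gene counts.

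LINC01133 had 219, 206 and 282 normalized counts in knockdown and 49.98 in WT, 4.72-fold. LINC01899 had 140, 126 and 162 in knockdown and 24.4 in WT, 5.85-fold. LINC01825 had 189, 252 and 197 in knockdown and 52.2 in WT, 4.07-fold. These 3 were more modest in ratio, and by the definition of the class every knockdown library was above WT. LINC01825 was close enough to the 4-fold limit that without KD 2 its ratio of 3.69 moved it to the members in both.

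The remaining members of this class rested on few reads in WT, as LINC00626 and LINC01899 also did. LINC00052 had 123, 77.7 and 107 normalized counts in knockdown and 4.44 in WT, which is 4 reads. Its pooled ratio of reads per normalization factor was 22.6, with an exact 95% interval of 8.76 to 83.6 that covers counting error only. LINC02476 had 106, 108 and 63.4 in knockdown and 4.44 in WT, also 4 reads, with a pooled ratio of 21.4 and an interval of 8.27 to 79.0. With so few reads in WT, the factor of both genes is uncertain. LINC02932 had 102, 115 and 123 in knockdown and 7.77 in WT (7 reads), 14.6-fold. LINC02541 had 62.6, 80.8 and 98.9 in knockdown and 18.9 in WT, 4.28-fold, and without KD 3 its ratio of 3.80 moved it to the members in both. No member of this class had a single exon or a near-identical copy. Their median exonic length was 1966 bases and their median span 55514 bases.

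**Figure D3:**
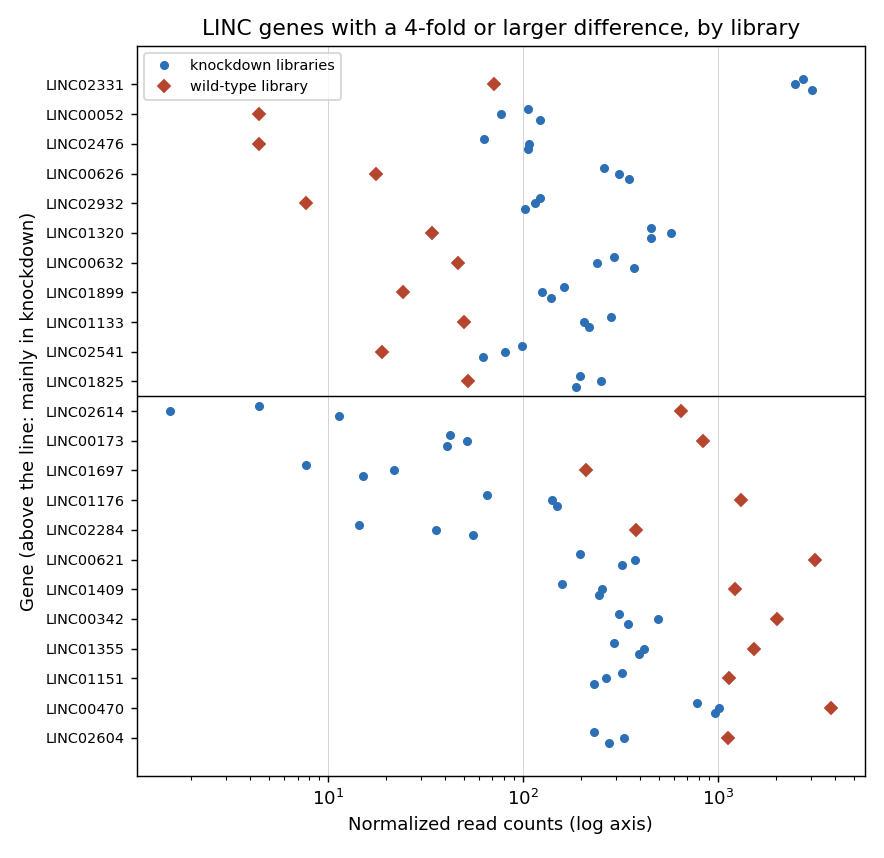
Normalized read counts (log axis) in each knockdown library (blue circles) and the WT library (red diamonds) for the 11 members mainly in knockdown (above the line) and 12 members mainly in wild type (below it). By the definition of the classes, the 3 knockdown libraries of each row lie on 1 side of WT. The rows run from LINC02331 with 2484 to 3037 against 71.1 to LINC02614 with 1.55 to 11.4 against 645.

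Members mainly in wild type were more numerous and together summed to 4444, 5034 and 3728 normalized counts in KD 1, KD 2 and KD 3 and 26341 in WT. Their ratios ran from 4.03 to 111, with a median of 6.24. LINC00470 was the highest of them, with 971, 1014 and 785 normalized counts in knockdown and 3834 in WT, 4.15-fold. LINC00621 had 322, 375 and 196 in knockdown and 3168 in WT, 10.6-fold. LINC00470 thus kept a substantial knockdown level, while LINC00621 was lower by a larger factor. Per kilobase of exon, LINC00621 stood at 2691 in WT and 253 in knockdown, and LINC00470 at 944 and 227.

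LINC00342 had 345, 493 and 310 normalized counts in knockdown and 2020 in WT, 5.28-fold. Near-identical copies of LINC00342 exist in the annotation, so its reads may be shared with them and its level is uncertain. LINC01355 had 396, 417 and 296 in knockdown and 1545 in WT, 4.18-fold. LINC01176 had 150, 141 and 65.6 in knockdown and 1323 in WT, 11.1-fold. LINC01176 overlaps exons of another gene on the same strand, and reads there cannot be told apart by strand. LINC01409 had 245, 256 and 159 in knockdown and 1222 in WT, 5.55-fold, with both a same-strand overlap and near-identical copies.

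LINC01151 had 232, 267 and 322 normalized counts in knockdown and 1138 in WT, 4.16-fold. LINC02604, annotated with 1 exon, had 277, 333 and 231 in knockdown and 1130 in WT, 4.03-fold. Both lay near the 4-fold limit, as did LINC00470 and LINC01355. Without KD 1 the ratio of LINC01151 was 3.86, and without KD 3 those of LINC00470, LINC01355 and LINC02604 were 3.86, 3.80 and 3.71, which moved them to the members in both.

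Further members of this class stood out by ratio instead of level. LINC02614 had 11.4, 1.55 and 4.45 normalized counts in knockdown and 645 in WT, from 18 knockdown reads and 581 WT reads. Its ratio of means was 111, and 215 without KD 1. Its pooled ratio was 116, with an exact 95% interval of 72.9 to 197. LINC02614 was thus nearly absent from KD 2 while well expressed in WT, and its exons overlap annotated genes on both strands. LINC00173 had 40.8, 52.1 and 42.2 in knockdown and 837 in WT, 18.6-fold. LINC01697 had 15.2, 21.8 and 7.78 in knockdown and 211 in WT, 14.2-fold. LINC02284 had 55.9, 35.7 and 14.5 in knockdown and 383 in WT, 10.8-fold. For LINC00173 the knockdown libraries lay close together, whereas for LINC01697 and LINC02284 KD 3 was the lowest and the knockdown libraries spread over more than a doubling.

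The other 26 members mainly in wild type had WT levels of 137 to 865 normalized counts and ratios of 4.03 to 9.75. From the highest WT level down they were LINC02912, LINC02595, LINC01145, LINC00852, LINC02666, LINC02683, LINC00882, LINC01322, LINC01687, LINC01567, LINC00513, LINC00310, LINC01772, LINC00511, LINC01391, LINC02958, LINC02545, LINC02565, LINC02788, LINC00216, LINC01695, LINC00896, LINC01359, LINC01126, LINC02381 and LINC00539. Over the 38 members, KD 3 was the lowest knockdown library in 24, KD 1 in 10 and KD 2 in 4. The coefficient of variation over the knockdown libraries had a median of 24.5% in this class, 16.2% in the members mainly in knockdown and 13.6% in those in both. Over all genes with a mean of at least 50 it was 8.28%. By its definition the class was low in knockdown. The median knockdown mean was 52.5 normalized counts in it, beside 212 in the members mainly in knockdown and 146 in those in both. The part of level in this spread was not tested. The class had a median exonic length of 2065 bases and a median span of 21714 bases, and 6 of its members had a single exon.

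Most members, 141, were found in both groups. Together they summed to 57389, 55150 and 53096 normalized counts in KD 1, KD 2 and KD 3 and 64460 in WT. By the definition of the class their ratios stayed small, at most 3.93-fold, with a median of 1.79-fold. The mean in knockdown was above WT for 52 and below it for 89. Exonic length had a median of 2811 bases, span a median of 16854 bases, and 13 members had a single exon.

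LINC00472 was the most abundant member, with 8243, 8555 and 6072 normalized counts in knockdown and 5063 in WT. All knockdown libraries were above WT, 1.51-fold in the mean, with KD 3 the closest. LINC00472 lies at chr6:71344344-71420769 on the minus strand and shares exon sequence with another gene on that strand. LINC00958 had 5943, 5387 and 5337 in knockdown and 3775 in WT, 1.47-fold. Scaled to equal library totals, its knockdown mean and WT were level, with a log2 ratio of -0.0046. LINC01278 had 2902, 2959 and 3097 in knockdown and 5088 in WT, so that it was 1.70-fold higher in WT. LINC01278 was the member with the highest level in WT.

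LINC01234 had 2486, 1999 and 2213 normalized counts in knockdown and 619 in WT. Its 3.61-fold ratio was the largest toward knockdown among the members in both. LINC02672 had 1761, 1509 and 1819 in knockdown and 499 in WT, 3.40-fold. Per kilobase of exon, LINC02672 stood at 4087 in knockdown and 1202 in WT and LINC00472 at 2214 and 1470. The annotated exons of LINC02672 add up to only 415 bases, so its level per length depends on that annotation. LINC00467 had 1622, 1222 and 1314 in knockdown and 539 in WT, 2.57-fold.

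On the other side, LINC00630 had 1155, 1168 and 1117 normalized counts in knockdown and 2525 in WT, 2.20-fold higher in WT. LINC01515 had 1088, 1131 and 849 in knockdown and 2031 in WT, 1.99-fold. LINC00963 had 1147, 1211 and 1334 in knockdown and 1719 in WT, 1.40-fold. In all 3 genes every knockdown library was below WT. LINC00205 had 1160, 1197 and 1204 in knockdown and 1577 in WT, 1.33-fold, again with every knockdown library below WT. That held for 40.4% of all genes with a mean of at least 50.

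Among the members in both, those with the widest spread between knockdown libraries were low in level. LINC02709 had 79.6, 65.3 and 26.7 normalized counts in knockdown and 28.9 in WT, LINC01503 had 35.1, 83.9 and 84.5 against 75.5, and LINC01011 had 40.8, 98.7 and 84.5 against 102. In the first 2 genes the knockdown libraries lay on both sides of WT, and in LINC01011 all were below it. LINC01111 had 134, 56.7 and 101 against 65.5, again on both sides of WT. Their coefficients of variation were 39.7% to 47.9%, and none of the 4 was called. The direction of LINC01503 turned with median-of-ratios and TMM scaling and without KD 1 (log2 ratio 0.16 against -0.16), and LINC01111 was level with WT at equal totals (-0.0044).

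At the limit of 50, the members just inside were LINC00539 (50.1 on average), LINC02709 (50.1) and LINC01703 (51.1), and the LINC rows just outside were LINC00663 (49.1), LINC01206 (49.0) and LINC02293 (47.9). LINC01703 had 75.8, 39.6 and 44.5 in knockdown and 44.4 in WT, on both sides of WT, and its direction turned without KD 1 (log2 ratio -0.08) and with equal totals (-0.30), and LINC00539 had 24.6, 25.6 and 13.3 against 137. LINC02293, outside, had 41.7, 17.9 and 13.3 against 119 and would have been mainly in wild type. The limit therefore separates genes of similar patterns.

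The nearest protein-coding genes were not used to choose the members and could be tested. A neighbour within 500 kb was found for 173 members, and it overlapped the member in 16 cases. Of 151 different neighbours apart from their member, 127 passed the filter on low values. In knockdown, 70 were higher, 24 were lower and 33 were not called, which is 55.1% and 18.9% of those tested. Over all 14464 protein-coding genes tested, 45.9% were called higher and 24.7% lower. Their median log2 difference was 0.46, beside 0.28 over all protein-coding genes tested. With libraries scaled to equal totals, 44 neighbours were higher and 46 lower, so the direction of this group as a whole depends on the scaling.

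Beside members mainly in knockdown, all 7 tested neighbours were higher in knockdown (limma, Benjamini-Hochberg adjusted over all genes), with a median log2 difference of 1.86. Over all protein-coding genes tested, 45.9% were higher. SOX3 and KCND2, 2 of the 7, passed the filter on low values only through knockdown, so they could enter only by being higher. For the 5 neighbours with a mean of at least 50, the median log2 difference was 1.35. BMP4, beside LINC02331, had 4522, 4460 and 4962 normalized counts in KD 1, KD 2 and KD 3 against 927 in WT, and differed by 2.32 ± 0.10 on the log2 scale (SE, adjusted p = 6.6e-05). SLC39A10, a zinc importer beside LINC01825, had 16989, 16009 and 16867 in knockdown and 4587 in WT, 1.86 ± 0.10 (adjusted p = 6.6e-05). MARCKS, an actin-binding substrate of protein kinase C beside LINC02541, differed by 1.35 ± 0.16 (adjusted p = 0.00060). The knockdown libraries of these genes did not overlap WT, which held for most genes. Among all genes with a mean of at least 50, every knockdown library was above WT for 53.2% and below it for 40.4%.

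FZD1, a Wnt receptor beside LINC02932, had 512, 485 and 471 normalized counts in knockdown and 199.9 in WT, 1.29 ± 0.14 (adjusted p = 0.00044). FAM98A, beside LINC01320, had 3892, 3415 and 4020 in knockdown and 1848 in WT, 1.03 ± 0.12 (adjusted p = 0.00054). SOX3, a transcription factor beside LINC00632, had 38.9, 36.5 and 24.5 in knockdown and 4.44 in WT, 2.63 ± 0.53 (adjusted p = 0.0053). KCND2, a potassium channel subunit beside LINC02476, had 15.2, 38.1 and 37.8 in knockdown and 0 reads in WT, where 3 reads would be 3.33 normalized counts (adjusted p = 0.0016). Both SOX3 and KCND2 were low genes, with WT values under the filter, so nothing is read from their direction. DPT beside LINC00626, SLAMF9 beside LINC01133 and NTRK3 beside LINC00052 were under the filter, with at most 4.45 normalized counts in any library, so these 3 members were higher beside genes with next to no reads. With no filter, all 10 were tested and 7 were higher and 1 lower. The 7 calls were also made under each of the 3 other scalings, edgeR, DESeq2 and without any 1 knockdown library. SOX3 and KCND2 could enter only by being higher, so this bears on the other 5 alone. The neighbours of this class lay at a median of 103179 bases, further than the 15952 bases of the members mainly in wild type and the 17359 bases of those in both.

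Beside members mainly in wild type, 22 neighbours were tested, and 10 were higher, 6 lower and 6 not called in knockdown. Their median log2 difference was 0.44. The shares of 45.5% higher and 27.3% lower lay near those over all protein-coding genes tested, 45.9% and 24.7%. The pairs named below are therefore a description and no result about the class. HNRNPR, an RNA-binding protein gene beside LINC01355, differed by 0.86 ± 0.11 (adjusted p = 0.00080). TMEM248, beside LINC02604, differed by 1.06 ± 0.11 (adjusted p = 0.00034), and PELI2, a ubiquitin ligase gene beside LINC02284, by 0.79 ± 0.10 (adjusted p = 0.00082). In all 3 pairs the LINC member was lower and the neighbour higher in knockdown. These are 3 of the 10 pairs with a higher neighbour, while all 6 with a lower one are named next. The names therefore do not show how common either pattern was.

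Neighbours that fell with their member were ANKRD36C beside LINC00342, with a log2 difference of -1.47 ± 0.16 (adjusted p = 0.00036), and MAP1LC3B2 beside LINC00173, with -2.28 ± 0.50 (adjusted p = 0.0077). MAP1LC3B2 was low, with 11.4, 10.9 and 13.3 normalized counts in knockdown and 61.1 in WT. The other 4 lay beside members given above by name only. They were LAMA3, a laminin chain gene beside LINC02958, and MGMT, a DNA repair gene beside LINC02666. FOXL2, a transcription factor of ovarian granulosa cells, lay beside LINC01391, and KLF14 beside LINC00513. The log2 differences of these 4 were, in this order, -0.96, -0.51, -0.72 and -1.34. LINC01391 lies 204 bases from FOXL2. ZHX2 beside LINC01151 (5533, 5984 and 7114 normalized counts in knockdown against 6054 in WT) did not pass the test.

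Beside members in both, 99 neighbours were tested, and 54 were higher, 18 lower and 27 not called in knockdown. These are 54.5% higher and 18.2% lower, beside 45.9% and 24.7% over all protein-coding genes tested. TEAD1, a transcription factor of the Hippo pathway beside LINC00958, differed by 0.41 ± 0.11 (adjusted p = 0.018), and OGFRL1, beside LINC00472, by 1.52 ± 0.12 (adjusted p = 0.00012). RBM19, a gene of ribosome assembly beside LINC01234, went the other way from its member, with -0.93 ± 0.11 (adjusted p = 0.00061). POFUT2, a fucosyltransferase gene that starts within 1 kb of LINC00205 on the opposite strand, differed by -0.64 ± 0.10 (adjusted p = 0.0020), and LINC00205 was also lower. In all, 9 members had such a head-to-head neighbour.

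**Figure D4:**
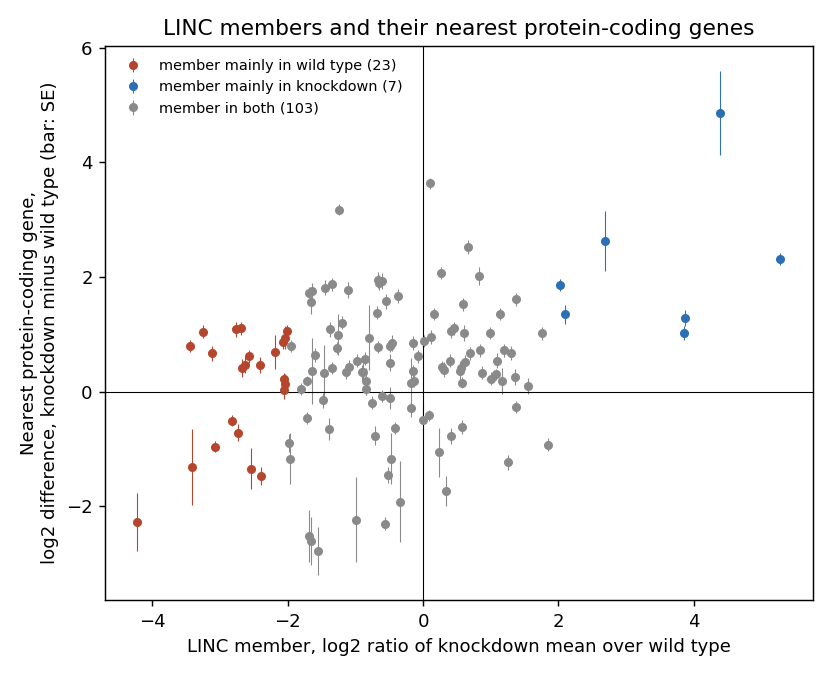
For each member with a tested, non-overlapping nearest protein-coding gene, the log2 ratio of the member (horizontal axis) is set against the log2 difference of the neighbour, knockdown minus WT (vertical axis, bars are standard errors), with a neighbour of several members drawn once for each. The 7 points of members mainly in knockdown all lie above 0, while neighbours of members mainly in wild type lie on both sides. Among the 7, SOX3 and KCND2 passed the filter on low values only through knockdown.

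Genes of RNA degradation, termination and export that act on such transcripts were described as a list of 38, all of which were tested. In knockdown 18 were higher and 6 lower, and their median log2 difference was 0.30. All are protein-coding, and over all protein-coding genes tested 45.9% were higher and 24.7% lower, with a median of 0.28, so the list as a whole lay near that background. Of 13 nuclear exosome genes 8 were higher and 1 was lower. C1D, a cofactor that tethers the exosome, differed by 2.02 ± 0.19, EXOSC9, a core ring subunit, by 1.71 ± 0.14 and EXOSC10, a catalytic subunit, by 1.03 ± 0.10, while EXOSC7 fell by 0.50 on the log2 scale (adjusted p = 0.00021, 0.00012, 0.00029 and 0.018). Of 8 exosome adaptors, 3 were higher and 3 lower. MTREX, the exosome helicase, differed by 1.41 ± 0.12 (adjusted p = 0.00015) and RBM7 by 1.21 ± 0.11 (adjusted p = 0.00017), while PABPN1 differed by -1.43 ± 0.28 (adjusted p = 0.0046) and ZFC3H1 by -0.72 ± 0.09 (adjusted p = 0.00086). The last 2 encode partners that direct polyadenylated nuclear RNA to the exosome.

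Among 8 termination genes, XRN2, the nuclear 5′ exonuclease, differed by 1.39 ± 0.11 and CPSF3, the endonuclease of 3′ end formation, by 1.68 ± 0.11, and INTS6 was lower (-0.47 ± 0.11). Of 6 export genes, 4 were higher, with NXT1 at 2.02 ± 0.18, and none was lower. Of 3 cap-binding genes, NCBP1 was higher (0.87 ± 0.10) and NCBP3 lower (-0.62 ± 0.11). These were measured in the same libraries as the LINC members, and their part in the members' levels was not tested.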

How the data were processed

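Total RNA of 4 OVCAR3 libraries was analysed, 3 with ANAPC1P2 knockdown and 1 wild type, grouped by their labels. The authors deposited, for each library, a signal for every gene that is a normalized read count. The submitters' processing notes name STAR 2.7.11b, featureCounts 2.0.6, DESeq2 and the build hg38. Their order, the annotation, the strand setting and the handling of multiply mapped reads are not stated in the sources used here. Each value divided by the smallest step of its library gave a whole number of reads (tolerance 0.01 reads) in 100% of cases, so read counts were recovered.

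Members, classes and gene lists were chosen with earlier results of these data known. The text describes all 11 members mainly in knockdown. Of those mainly in wild type it describes the 8 highest in WT and 4 more by ratio, and of those in both the 10 highest and the 4 with the widest knockdown spread. Differences were tested with limma 3.58.1 (limma-trend, R 4.3.3), two-sided, on log2(value + 1), a pseudocount of 1, for genes with a mean of at least 10, with Benjamini-Hochberg adjustment. A log2 difference on this scale understates the change of low genes. The spread comes from the 3 knockdown libraries, and the same spread is assumed for the single wild-type library. Alternatives were edgeR 4.0.16 (quasi-likelihood) and DESeq2 1.42.0 run on read counts, and other pseudocounts, filters, scalings, class limits and leaving out each knockdown library. Gene positions and exon lengths came from GENCODE 29 on GRCh38, which held 185 of the 190 members. It typed 150 as lincRNA, 19 as processed transcript, 11 as antisense and 1 as protein-coding, and the rest as other types. Neighbours were found from these gene positions, exon overlaps with bedtools 2.31.1 and copies (at least 97% identity over 300 bases) with blastn 2.17.0. Of the members, 128 had neither an exon overlap nor such a copy. Depth was 27868718 to 56216398 reads in genes. A floor of 3 reads equals 2.33 to 3.34 normalized counts by library, and 95% intervals cover counting error only.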

Additional observations from a re-analysis of the deposited data

How the results depend on the processing

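With libraries scaled to equal totals, 67 members were mainly in wild type and 7 mainly in knockdown, 23 members were called higher and 121 lower (37 and 97 with the deposited values), and 44 neighbours were called higher and 46 lower. Over all genes that scaling gave 4701 higher and 12735 lower calls, against 7329 and 8465 with the deposited values, and the median log2 difference of all genes was -0.89 against -0.28 (0.02 with median-of-ratios and -0.03 with TMM scaling). Median-of-ratios and TMM scaling moved the counts the other way, to 26 members mainly in wild type with either, 16 and 12 mainly in knockdown, and 77 and 80 called lower. The members' median was -1.24, against -0.68 (-0.40 and -0.45). At a 2-fold limit 77 members were mainly in wild type, 29 mainly in knockdown and 84 in both, and at an 8-fold limit 11 and 6 were in the outer classes. A mean of at least 100 left 25 and 7 members in the outer classes, and a mean of at least 25 put 64 mainly in wild type. When the mean of the group means decided membership, 55 were mainly in wild type, 9 mainly in knockdown and 143 in both. No member passed from 1 outer class to the other under any setting that was run. The direction of 22 members turned with equal totals and that of 10 with either other scaling, all of them in both groups, and LINC00958 went from 0.56 to -0.0046 with equal totals. Without 1 knockdown library at a time, 36 to 44 members were mainly in wild type and 10 or 11 mainly in knockdown. No paired analysis was possible because the wild-type group has 1 library. Depth limits ratios of members with few wild-type reads, above all LINC00052, LINC02476 and LINC02932. The cause of these differences was not tested.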
